A study of Mus musculus with 6 samples.

Results

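The genes described here set the tone of the pulmonary vessels, that is, how far their smooth muscle is contracted or relaxed. They are Edn1, Ednra, Ednrb, Ece1, Nos3, Adm, Calcrl, Ramp2, Ptgis and Ace, and they were followed in 6 samples of whole lung from mouse fetuses at embryonic day 18.5 (E18.5), just before birth. A probe set, the group of short oligonucleotides that reads one transcript on the array, was taken for a gene if the platform annotation gave it that symbol and no other. By this rule 13 of the 22626 mouse probe sets on the array belonged to 9 of the 10 genes, Ednrb, Ece1, Calcrl and Ace having 2 each. Ednra, the endothelin receptor by which smooth muscle contracts, was named by no such probe set and was not analysed here.

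Of the 6 samples, called lungs below, 3 were Igf1-/-, homozygous for a germline null allele of insulin-like growth factor 1, and 3 were Igf1+/+. Both groups came from matings of heterozygotes of a line backcrossed to C57BL/6J. The allele is lost from all cells, so that an effect within the lung and one of the small, Igf1-less fetus around it were measured together. According to the study's methods, fetuses of this age were delivered by caesarean section and helped to breathe for a short time before dissection. The study raises normal breathing by the wild-type fetuses as a possible reason for differences in immediate-early genes. It adds that IGF1 has been reported to induce many of them elsewhere, which in its view would also favour dependence on IGF1 signaling. It also reports that mutants of this line died soon after birth, apparently of respiratory failure. A difference in breathing before dissection and one of genotype cannot be told apart here. A label and the study both call the 3 samples of a genotype biological replicates. The labels also speak of pooled lungs and the study's methods of separate ones, and nothing settles this. The p-values below therefore measure the spread between these samples, combined by the test with a variance shared over all probe sets. The spread between samples may be in part technical and, if each sample was a pool, is not the spread between single fetuses.

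The tone of a fetal pulmonary artery is high and falls at birth, when the lung takes over gas exchange. On the constrictor side, the endothelium secretes endothelin-1 (Edn1) after endothelin converting enzyme (Ece1) has cut its precursor, and angiotensin converting enzyme (Ace) makes angiotensin II. On the dilator side, endothelial nitric oxide synthase (Nos3) and prostacyclin synthase (Ptgis) make the diffusible relaxants nitric oxide and prostacyclin, and the peptide adrenomedullin (Adm) acts on a receptor built from Calcrl and its partner Ramp2. Ednrb binds endothelin on endothelium, where it releases dilators and clears the peptide, and also on some smooth muscle.

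Values are log2 intensities on the robust multi-array average scale, and a difference is the mean of the Igf1-/- lungs minus that of the Igf1+/+ lungs, both n = 3. The words rose and fell are kept for probe sets whose p-value from limma's moderated test, adjusted by Benjamini-Hochberg over all 22626, was under 0.10. A wider level of 0.20 is given beside it. Levels of different genes are not compared, because each probe set has its own brightness.

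The 6 arrays were alike over all probe sets, with medians between 6.854 and 6.89 and pairwise correlations between 0.9918 and 0.9964. Lung epithelial products stood at the top of the scale, surfactant protein C (Sftpc) between 14.37 and 14.47, and each of 15 endothelial markers, at its brightest probe set, was at 7.94 or above on every array. The targeted gene was not lost from the arrays. Igf1 read 6.15, 6.33 and 6.46 in Igf1-/- lungs against 6.59, 7.12 and 6.97 in Igf1+/+ lungs at the probe set where the groups did not overlap (difference -0.58, limma adjusted p = 0.152), and the other 2 probe sets differed by -0.51 and -0.42 (adjusted p = 0.267 and 0.327). The position of these probe sets relative to the disrupted part of the gene was not examined, so they do not check the genotype. Igf1-/- replicate 3 stood apart in markers of cardiac muscle. Their mean was 8.99 there and between 7.65 and 7.97 on the other 5 arrays. Between genotypes the markers Myh6 and Myl7 differed by 0.42 and 0.48 (limma adjusted p = 0.667 and 0.529). Nppa, a product of atrial muscle picked out after its values were seen, read 7.29 in Igf1-/- replicate 3 and between 4.21 and 4.44 elsewhere. The members are therefore given also without this array.

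**Figure D1:**
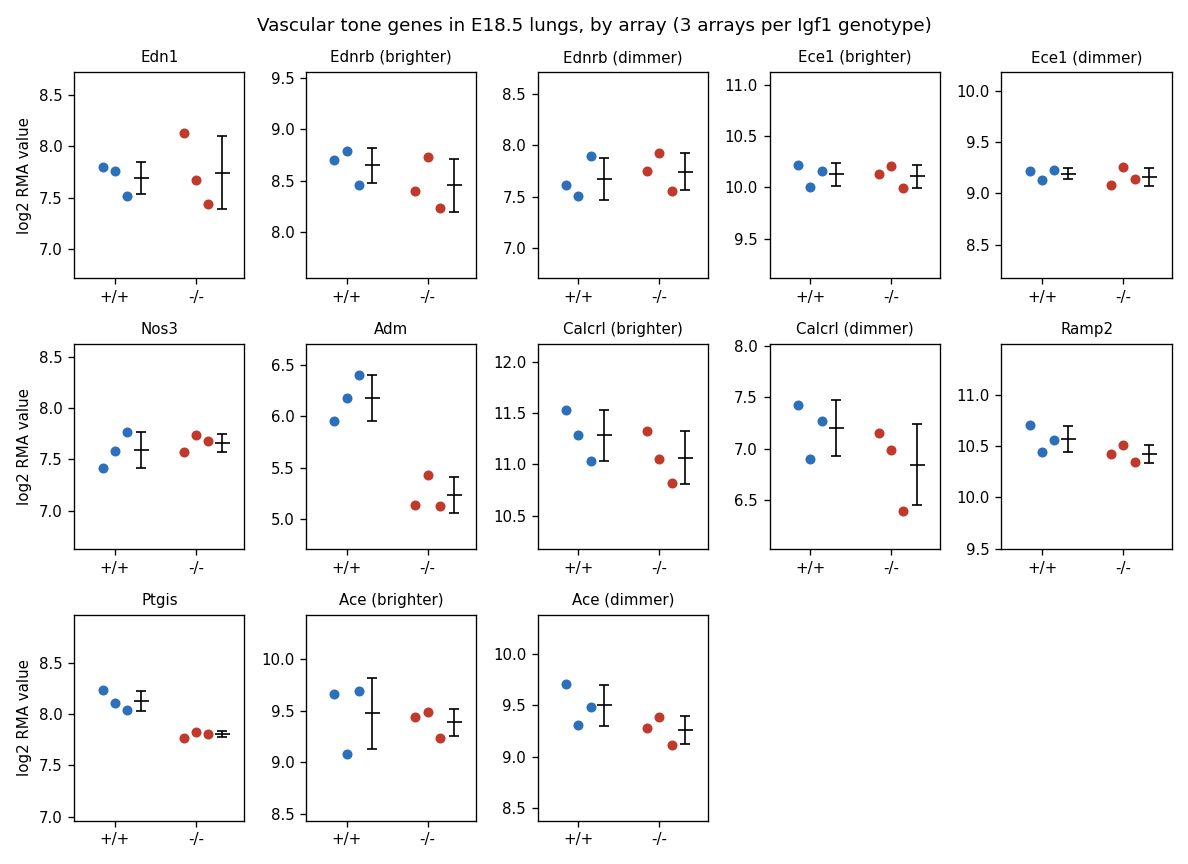
Log2 intensity of the 13 probe sets in each lung, one panel per probe set, each panel spanning 2 log2 units. Points are Igf1+/+ (blue) and Igf1-/- (red) replicates 1 to 3 from left to right, and bars are the mean ± SD (n = 3). The groups lie apart for Adm and Ptgis and overlap in the other panels.

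Of the 9 genes, Adm fell, Ptgis fell at the wider level, and none rose. At 0.10 this is 1 of 13 probe sets, against 0.393% of all probe sets that fell and 0.164% that rose. At 0.20 it is 2 of 13, against 1.62% that fell and 0.981% that rose. By unadjusted p under 0.05 the count was also 2, both lower (15.4%, near the 12.5% of all probe sets). The groups did not overlap for the same 2 probe sets, lower in Igf1-/- lungs. Over the whole array the groups were apart with Igf1-/- lower for 7.26% and with Igf1-/- higher for 10.8% of probe sets. Differences were below 0 for 10 of the 13 probe sets (76.9%) and for 41.8% of all probe sets, and the median difference was -0.15 against 0.03. Without Igf1-/- replicate 3 these were 9 of 13, 43.5% and a member median of -0.09. The 13 are not independent, since 8 of them are pairs for the same gene and most of the genes share the endothelium.

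Adm encodes a peptide that relaxes vessels, is made by endothelium and other lung cells and is a classical target of the hypoxia-inducible factors (HIF). Its probe set read 5.14, 5.43 and 5.13 in mutant lungs against 5.95, 6.18 and 6.40 in wild-type lungs. The highest mutant lung thus lay below the lowest wild-type lung. The means were 5.23 ± 0.17 and 6.18 ± 0.22 (SD, n = 3), a difference of -0.94 (SE 0.13, 95% interval -1.24 to -0.65) or 1.93-fold lower (limma adjusted p = 0.0271). It is a dim probe set, its mean at percentile 34.9 of all, where this scale tends to compress differences. The spread of Adm within genotypes was 0.20, and limma combined it with a smaller SD shared over all probe sets, 0.111. Without Igf1-/- replicate 3 the difference was -0.89 (SE 0.15) and the adjusted p 0.135, so that the size held and the call did not. The call was likewise lost when the first Igf1-/- lung was left out (difference -0.90, limma adjusted p = 0.123), and so it was on leaving out Igf1+/+ replicate 2 (difference -0.94, adjusted p = 0.102).

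Because Adm is the member that moved and Edn1 the opposing peptide that did not pass the test, the 250 bases upstream of their annotated starts are shown, from RefSeq on GRCm38.p6. Both lie on the plus strand, Adm at chr7:110627407-110627656 and Edn1 at chr13:42301226-42301475. Capitals mark the HIF core, searched as ACGTG or GCGTG on both strands.
Adm: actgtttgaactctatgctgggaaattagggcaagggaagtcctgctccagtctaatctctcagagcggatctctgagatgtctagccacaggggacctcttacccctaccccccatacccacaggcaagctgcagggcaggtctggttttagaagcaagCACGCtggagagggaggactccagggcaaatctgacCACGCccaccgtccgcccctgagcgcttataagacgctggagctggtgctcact
Edn1: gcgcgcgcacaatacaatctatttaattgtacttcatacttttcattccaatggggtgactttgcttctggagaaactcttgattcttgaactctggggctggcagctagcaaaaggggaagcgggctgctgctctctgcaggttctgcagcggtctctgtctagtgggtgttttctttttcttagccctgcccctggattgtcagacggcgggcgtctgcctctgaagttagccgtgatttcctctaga
The Adm window held 2 matches, both CACGC as read here, that is GCGTG on the other strand, beginning 90 and 54 bases before the start. The Edn1 window held none. Neither held the letters TGANTCA, by which the AP-1 factors are often searched, on either strand. Of 32851 windows of this length, 38.6% held at least 1 HIF core and 6.75% the AP-1 letters, so a match is common and is a description of the sequence only. Among the members that did not pass the test, the windows of the 4 annotated starts of Ece1 held 1, 1, 4 and 0 matches of the HIF core, some of these windows overlapping, that of Ednrb held 1, and those of Calcrl and Ace held none. In the Ece1 window with 4, the matches beginning 90 and 89 bases before the start overlap, since CACGTG reads the same on both strands. Matches were thus found with and without a fall. Windows for Nos3, Ptgis and Ramp2 were not analysed here.

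Edn1, the constrictor peptide, read 8.13, 7.67 and 7.44 in Igf1-/- and 7.80, 7.76 and 7.52 in Igf1+/+ lungs. The mutant lungs held both the highest and the lowest value. The difference was 0.05 (SE 0.16, adjusted p = 0.913), and its 95% interval of -0.32 to 0.43 spans folds from 0.803 to 1.34. Without Igf1-/- replicate 3 the difference was 0.21 (adjusted p = 0.69), and without Igf1-/- replicate 1 it was -0.14, so these lungs give Edn1 no direction.

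The receptor of adrenomedullin did not pass the test in either of its parts. Calcrl, the part that spans the membrane and signals, read 11.33, 11.05 and 10.82 in mutant lungs and 11.53, 11.29 and 11.03 in wild-type lungs at its brighter probe set. The difference was -0.22 (SE 0.15, 95% interval -0.57 to 0.14, adjusted p = 0.594). The dimmer probe set read 7.15, 6.99 and 6.40 against 7.43, 6.90 and 7.27 (-0.36, SE 0.20, adjusted p = 0.492). On both probe sets Igf1-/- replicate 3 was the lowest of the 6, and without it the differences shrank to -0.09 and -0.13. Ramp2, which carries Calcrl to the cell surface and makes it bind adrenomedullin, read 10.42, 10.51 and 10.34 in Igf1-/- and 10.70, 10.44 and 10.56 in Igf1+/+ lungs. Its difference was -0.15 (SE 0.09, 95% interval -0.35 to 0.06, adjusted p = 0.531), and it was -0.10 without Igf1-/- replicate 3. A pair of further probe sets that the annotation gives to Ramp2 together with its neighbour Vps25 was outside the rule, with differences of -0.04 and 0.10.

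Ednrb had 2 probe sets that leaned in opposite ways, neither passing the test. The brighter read 8.40, 8.73 and 8.23 in mutant and 8.70, 8.79 and 8.46 in wild-type lungs (-0.20, SE 0.14, 95% interval -0.51 to 0.11, adjusted p = 0.575). The dimmer read 7.75, 7.92 and 7.56 against 7.61, 7.51 and 7.90 (0.07, SE 0.13, 95% interval -0.21 to 0.36, adjusted p = 0.847). Without Igf1-/- replicate 3 they differed by -0.09 and 0.16. A fall of the receptor and no fall were thus both within what the 2 probe sets allow.

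Ptgis, the last enzyme of prostacyclin synthesis, was the other member whose groups did not overlap. It read 7.77, 7.83 and 7.81 in mutant lungs against 8.23, 8.11 and 8.04 in wild-type lungs. The mutant lungs lay close together, all below the wild-type lungs. The difference was -0.33 (SE 0.08, 95% interval -0.50 to -0.15), or 1.25-fold lower, with an adjusted p of 0.155 and so under the wider level alone. Without Igf1-/- replicate 3 it was again -0.33, with an adjusted p of 0.392.

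Nos3, the endothelial source of nitric oxide, read 7.57, 7.74 and 7.68 in mutant lungs and 7.42, 7.58 and 7.77 in wild-type lungs. The wild-type lungs held both the lowest and the highest value. The difference was 0.08 (SE 0.10, 95% interval -0.15 to 0.31, adjusted p = 0.78), and it was 0.07 without Igf1-/- replicate 3. Messenger RNA says nothing of the enzyme's activity, which is set largely by calcium, phosphorylation and cofactors.

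Ece1, the protease that releases active endothelin, had the smallest differences of the 9 genes, with no settled sign. Its brighter probe set read 10.13, 10.21 and 9.99 in mutant and 10.22, 10.00 and 10.16 in wild-type lungs (-0.02, SE 0.09, 95% interval -0.22 to 0.19, adjusted p = 0.959). Its dimmer probe set read 9.08, 9.26 and 9.14 against 9.22, 9.13 and 9.23 (-0.03, SE 0.08, 95% interval -0.21 to 0.15, adjusted p = 0.896). Its 2 probe sets thus gave nearly the same difference, with intervals that reach little beyond 0.2 in either direction. They were 0.05 and -0.02 on leaving out Igf1-/- replicate 3.

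Ace, which makes angiotensin II and breaks down bradykinin on the lung's capillary endothelium, read 9.44, 9.49 and 9.24 in mutant lungs and 9.66, 9.08 and 9.69 in wild-type lungs at its brighter probe set. The spread within the wild-type lungs was wider than the difference of -0.09 (SE 0.16, 95% interval -0.45 to 0.27, adjusted p = 0.853). The dimmer probe set read 9.28, 9.38 and 9.11 against 9.71, 9.31 and 9.48. There the difference was -0.25 (SE 0.11, 95% interval -0.51 to 0.01, adjusted p = 0.42). The 2 probe sets differed by -0.01 and -0.17 on leaving out Igf1-/- replicate 3.

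**Figure D2:**
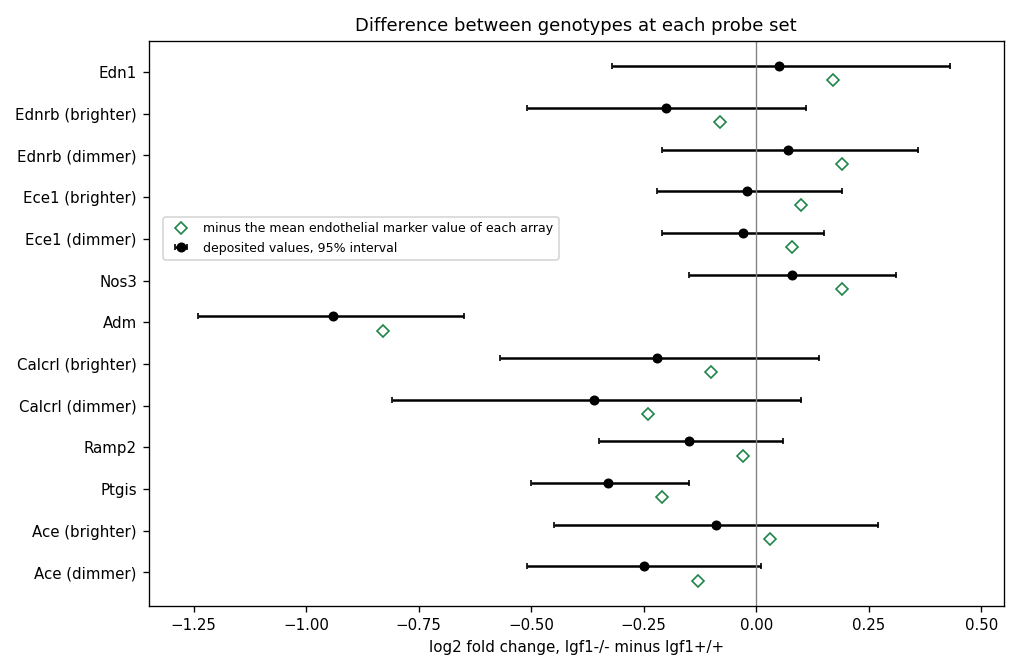
Difference of the means (Igf1-/- minus Igf1+/+, log2) with its 95% interval from limma for the 13 probe sets (black). Green diamonds are the differences after the endothelial marker mean of each array was subtracted. The intervals of Adm (-1.24 to -0.65) and Ptgis (-0.50 to -0.15) lie below 0, and those of the other 11 probe sets cross it.

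Most of these genes are expressed by endothelium, and they were set beside 15 endothelial markers measured on the same arrays. In RNA from whole lungs, fewer cells of a type and less RNA per cell cannot be told apart. The mean of the markers was 9.77, 9.80 and 9.63 in Igf1-/- and 9.94, 9.73 and 9.86 in Igf1+/+ lungs. The lowest of the 6 was Igf1-/- replicate 3, the array with the cardiac markers, and the next lowest was Igf1+/+ replicate 2. Of the 15 markers 12 were below 0, with a median difference of -0.11, and none passed the test at 0.10, although 3 had an unadjusted p under 0.05. The groups lay apart for 4 markers, all lower in Igf1-/- lungs. Of all 12393 genes at the brightest probe set, 39.4% were below 0, 0.452% fell at 0.10, 1574 had an unadjusted p under 0.05, and 6.84% lay apart and lower. These shares apply to the lists below as well. The 2 brightest markers were the junction protein Cldn5, which differed by -0.18 (adjusted p = 0.583), and the adhesion molecule Icam2, which differed by -0.34 (adjusted p = 0.348).

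Several of the members, but not all, went up and down with these markers from lung to lung. Within its genotype, Igf1-/- replicate 3 was the lowest lung for 10 of the 13 probe sets and Igf1+/+ replicate 2 for 7, against 31.5% and 30.5% of all probe sets. Igf1-/- replicate 3 is also the array with the cardiac markers, and the spreads that follow were not computed without it. Whether the members went with endothelium or with another feature of that array was not tested. When the endothelial marker mean was subtracted from each array, the spread within genotypes became smaller for 9 of the 13 (69.2%) and for 20.7% of all probe sets. It went from 0.11 to 0.03 for Ramp2, from 0.11 to 0.03 for the brighter probe set of Ece1 and from 0.17 to 0.08 for the dimmer one of Ace. It grew for the other 4, from 0.14 to 0.19 for Nos3, from 0.07 to 0.10 for Ptgis, from 0.20 to 0.22 for Adm and from 0.07 to 0.08 for the dimmer probe set of Ece1. On this scale Ramp2 differed by -0.03 and Ece1 by 0.10 at its brighter probe set, with the mutant lungs now above the wild-type lungs. Subtraction also moved the median of all probe sets from 0.03 to 0.14, against which these values are to be read. No p-values are given on the marker scales. A term subtracted from every probe set of an array gives them a shared variance. limma's prior degrees of freedom rose from 4.84 to 20.8 on the endothelial and 868 on the smooth muscle scale, beside 4 residual ones. P-values there would rest mainly on that shared variance and little on the gene's own spread. On the deposited scale, with 4.84 beside 4, the p-values given here also rest in part on a shared variance.

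Relative to the endothelial markers Adm differed by -0.83 with groups that did not overlap. Ptgis was at -0.21 and its groups overlapped. Relative to 9 smooth muscle markers, whose mean ran from 8.59 to 8.89, Adm was at -0.88 and Ptgis at -0.26. The whole-array median was 0.09 on this scale. The number of probe sets below 0 was 7 of 13 relative to the endothelial markers, where 17.1% of all probe sets were below 0. Endothelial content as a part of the members' differences was not tested beyond this.

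**Figure D3:**
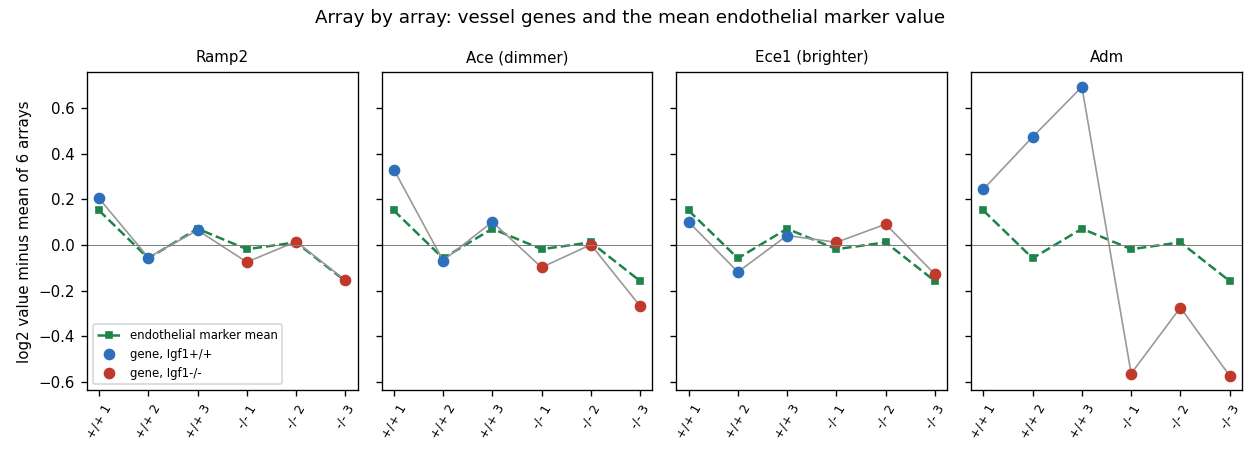
Log2 values of the endothelial marker mean (green dashes) and of Ramp2, Ace, Ece1 and Adm (points, Igf1+/+ blue, Igf1-/- red) on each array, each minus its own mean over the 6 arrays. Lines only guide the eye. Ramp2 lies close to the marker mean on all arrays, and Adm, from 5.13 to 6.40, runs far outside it.

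The markers of other cells moved as follows, at their brightest probe sets unless stated. The actin Acta2 differed by -0.16 (adjusted p = 0.558) and Myl9 by 0.04 (adjusted p = 0.929) among the smooth muscle markers, 5 of 9 of which were below 0. A dim probe set of Acta2 differed by -0.67 with groups apart (adjusted p = 0.244). All 4 pericyte markers were below 0 with a median of -0.09, Pdgfrb at -0.07 and Notch3 at -0.12. Dimmer probe sets of Pdgfrb and Notch3 were above 0, at 0.23 (adjusted p = 0.394) and 0.09, and those of Cspg4 and Rgs5 were below 0. All 5 macrophage markers were above 0 with a median of 0.22, their mean running from 8.69 to 8.88 in Igf1-/- and from 8.42 to 8.57 in Igf1+/+ lungs. Csf1r differed by 0.32 (adjusted p = 0.232) and Ctss by 0.22 (adjusted p = 0.466). Of 4 erythroid markers 2 fell, the anion exchanger Slc4a1 (-1.64, adjusted p = 0.000146) and the heme enzyme Alas2 (-0.87, adjusted p = 0.0754). The other 2 were above 0 on dim probe sets, Epb42 at 0.10 with groups apart and Hba-a1 at 0.12. Further probe sets of Slc4a1 differed by -2.02 and -0.16. The mean of the list ran from 6.23 to 6.37 against 6.83 to 6.93. The call of Alas2 was lost on leaving out Igf1-/- replicate 2 or 3 or Igf1+/+ replicate 1 or 2, with an adjusted p of up to 0.254. The part of blood content in the values above was not tested.

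Around the members, 59 of 73 further genes had a probe set of their own, 49 of them in the members' pathways and 10 in a list of other vasoactive peptides, the natriuretic peptides and apelin, which holds none of the members. At their brightest probe sets 29 were below and 30 above 0, with a median that rounds to 0. By limma 1 fell and none rose at 0.10, 4 fell and none rose at 0.20, and 14 had an unadjusted p under 0.05. Of all 12393 genes at the brightest probe set, 39.4% were below 0. By limma 0.452% of them fell and 0.145% rose at 0.10, 1.57% fell and 1.15% rose at 0.20, and 1574 had an unadjusted p under 0.05. Among the 59, the groups did not overlap for 11 genes lower and 6 higher in Igf1-/- lungs, against 6.84% and 11.9% of all genes. The 1 that fell was Apln of that added list, the apelin peptide, which endothelial cells secrete and which dilates vessels and guides their growth. It read 7.53, 7.61 and 7.57 in mutant and 8.20, 8.00 and 8.12 in wild-type lungs, a difference of -0.54 (SE 0.08) or 1.45-fold lower (adjusted p = 0.0389). When each lung was left out in turn its adjusted p ranged from 0.0489 to 0.176, under 0.10 in 2 of the 6 fits, the call being lost without any one of the Igf1-/- lungs or without Igf1+/+ replicate 1. Relative to the endothelial markers it differed by -0.42. Its receptor Aplnr read 11.32, 11.55 and 11.53 against 11.44, 11.33 and 11.28 (0.11, adjusted p = 0.629).

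The other 3 that fell at the wider level were Prkg1, Ptger3 and Nppc, the last also of the added list. Prkg1, the cyclic GMP-dependent kinase through which nitric oxide relaxes smooth muscle, read 7.72, 7.31 and 7.53 in Igf1-/- and 8.02, 8.04 and 7.92 in Igf1+/+ lungs (-0.48, adjusted p = 0.137). Ptger3, a receptor of prostaglandin E, read 6.52, 6.07 and 6.43 against 6.74, 7.08 and 7.09 (-0.63, adjusted p = 0.134), and its dimmer probe set differed by -0.06. Nppc, the endothelial C-type natriuretic peptide, read 5.59, 5.88 and 5.90 against 6.26, 6.07 and 6.24 (-0.40, adjusted p = 0.183). For each of the 3 the genotypes did not overlap at the brightest probe set. Without 1 lung their adjusted p reached 0.384, 0.308 and 0.485.

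In none of the 6 pathway lists did all genes lie on one side of 0. In the endothelin list 2 of 4 genes were below 0. Endothelin-3 (Edn3) differed by -0.36 and -0.33 at its 2 probe sets, both with groups apart (adjusted p = 0.295 and 0.324), and the peptidase Mme by -0.67 (adjusted p = 0.22) but -0.05 at its dimmer probe set. In the nitric oxide and cyclic GMP list 9 of 13 were below 0, with a median of -0.10. In the adrenomedullin list 4 of 7 were below 0. Ackr3, a scavenger receptor for adrenomedullin and a chemokine, was lower by -0.42 with groups apart (adjusted p = 0.202), and Ramp1 differed by 0.12 (adjusted p = 0.692). In the prostanoid list 7 of 16 were below 0. The angiotensin and kinin list had 3 of 9 below 0, the prorenin receptor Atp6ap2 at -0.05 and the peptidase Enpep at 0.21 with mutant lungs higher and apart (adjusted p = 0.333). The natriuretic and apelin list had 4 of 10 below 0.

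**Figure D4:**
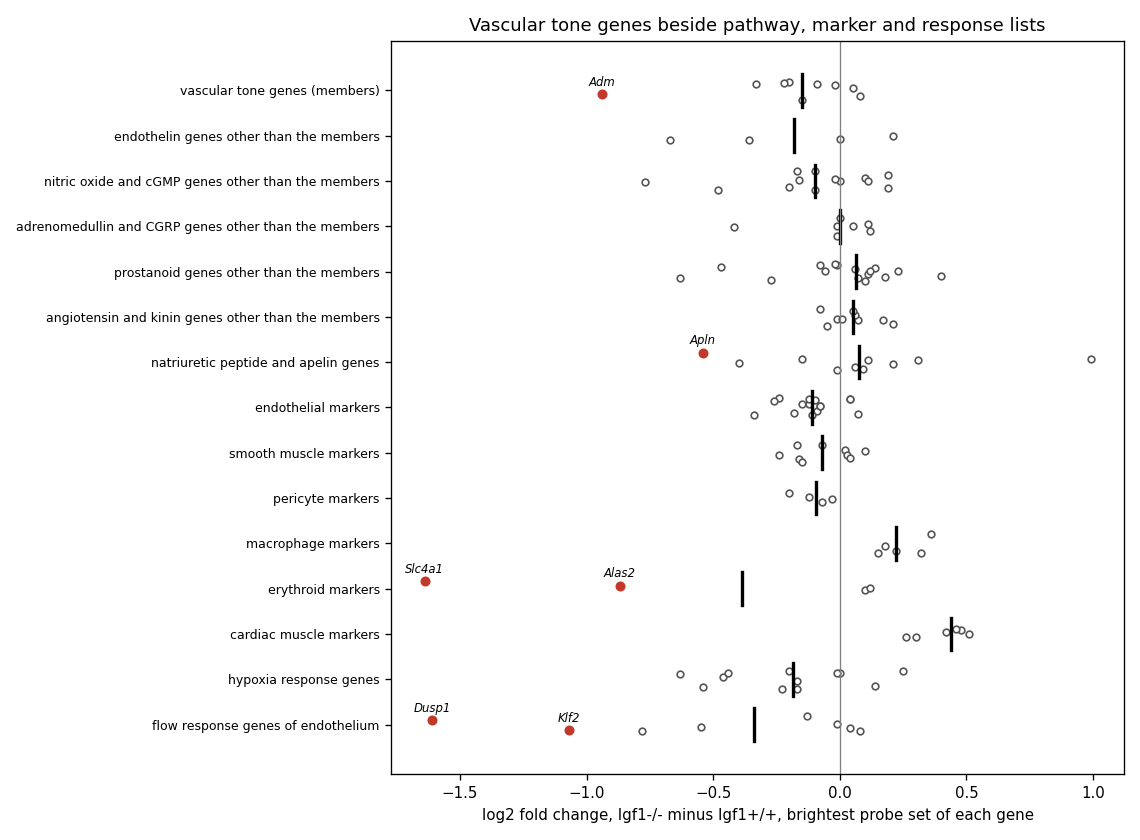
Difference (Igf1-/- minus Igf1+/+, log2) of every listed gene at its brightest probe set, one row per list, with the list median as a bar. Filled red points have a limma adjusted p under 0.10. Adm, Apln, Klf2, Dusp1, Slc4a1 and Alas2 are the filled points, and the medians of the pathway rows lie between -0.18 and 0.08. The highest point of the natriuretic row, at 0.99, is Nppa, which is high in Igf1-/- replicate 3 alone.

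Low oxygen and blood flow are known to act on some of these genes, and lists of their other targets were read. Neither oxygen nor flow was measured in these lungs. Their part in the values, or that of breathing before dissection, was not tested. For hypoxia, which induces Adm, Edn1 and Vegfa through HIF, 10 of 12 targets were below 0, with a median of -0.19. None passed at 0.10 at its brightest probe set and 6 had an unadjusted p under 0.05. Of all 12393 genes at the brightest probe set, 39.4% were below 0, the median was 0.03, and 1574 had such a p. The list mean was 9.08, 9.24 and 9.03 in Igf1-/- and 9.46, 9.26 and 9.26 in Igf1+/+ lungs, so that the groups lay apart by little. Vegfa, the main endothelial growth factor, fell at its dimmer probe set (-0.64, 1.56-fold lower, adjusted p = 0.0665) and differed by -0.44 at its brightest (adjusted p = 0.122). The call at the dimmer probe set was lost without any one of the Igf1-/- lungs or without Igf1+/+ replicate 1 (adjusted p of up to 0.25), and with the replicate number as a block it was 0.107. The oxygen-sensing hydroxylases Egln3 and Egln1 were at -0.63 (adjusted p = 0.244) and -0.23 (adjusted p = 0.312) at their brightest probe sets, and their dimmer ones passed the wider level at -0.56 (adjusted p = 0.191) and -0.41 (adjusted p = 0.136). Of the rest, Slc2a1 and Ndrg1 were at -0.46 and -0.54 (adjusted p = 0.298 and 0.325). Bnip3, P4ha1 and Pgk1 were at -0.20, -0.17 and -0.17, and Pdk1 and the glycolytic enzyme Ldha were near 0. Ddit4, among the 6 with an unadjusted p under 0.05, was higher, at 0.25, and Car9 was at 0.14.

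For blood flow, 6 of 8 responsive genes were below 0, with a median of -0.34, and 2 fell. Of all genes at the brightest probe set, 39.4% were below 0 and 0.452% fell, with a median of 0.03. Klf2, a transcription factor that laminar flow induces in endothelium and that is known to raise Nos3, read 9.36, 9.33 and 9.23 in Igf1-/- and 10.29, 10.44 and 10.37 in Igf1+/+ lungs (-1.07, 2.09-fold lower, adjusted p = 0.00162). In the same lungs Nos3 differed by 0.08, as given above. Dusp1, a phosphatase also induced by stress and glucocorticoid, was 3.06-fold lower (-1.61, adjusted p = 0.00763). The study, from these same arrays, lists Klf2 and Dusp1 among its IGF1 target genes. It measured a part of that list by quantitative RT-PCR in other lungs, with the same directions, and reports lower Klf2 protein in mutant lungs by Western blot. Flow as a cause was not tested. Klf4 at -0.78 (adjusted p = 0.106) and the plasminogen activator Plat at -0.55 (adjusted p = 0.103) passed the wider level, with an adjusted p of up to 0.336 and 0.252 without 1 lung. The rest of the list differed little, Thbd by -0.13, Cyp1b1 by -0.01, Tek by 0.04 and Slc9a3r2 by 0.08. The list median thus falls in a gap between these genes and Plat, Klf4, Klf2 and Dusp1, and the list did not move as a whole.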

How the data were processed

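Total RNA of 6 E18.5 lung samples was hybridised by the authors to Affymetrix MOE430A 2.0 arrays, 1 array per sample. The deposited values are log2 intensities after robust multi-array averaging, run by the authors over these and 6 cochlear arrays (version not given in the sources used here), and the cochlear arrays were not analysed here. Probe sets were named through the platform annotation, and all 13 member probe sets matched RefSeq by Entrez identifier. limma 3.58.1 in R 4.3.3 (lmFit, eBayes) compared genotypes without covariates, with Benjamini-Hochberg adjustment over 22626 probe sets, 64 controls being left out. It replaced the study's significance analysis of microarrays. With 3 lungs against 3 an exact permutation test cannot go below p = 0.1, so single-gene permutation tests were not used. Precision is limited by how few arrays there are. The members and lists were chosen with earlier results of these data known. Outside the members, genes were named if they passed the wider level, and otherwise the 2 brightest of each list. In the pericyte, erythroid, hypoxia and blood flow lists every gene with a probe set of its own was named. Those outside the rule, among them Ddit4, Car9 and Ldha, were picked after their values were seen, as were Nppa, Aplnr and Sftpc. One pathway list is not reported here. The fit was tested on simulated data.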

Additional observations from a re-analysis of the deposited data

How the results depend on the processing

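Adm kept its direction under all alternatives in which it was tested (-1.06 to -0.83 without 1 lung), but its probe set is left out by a filter on dim probe sets, and its adjusted p without 1 lung ranged from 0.0324 to 0.135, under 0.10 in 3 of 6 fits. The count of members that fell at 0.10 (1) was 0 with dim probe sets left out, 2 with array weights, 2 with the probe sets of a gene averaged, and from 0 to 2 without 1 lung: 0 when the lung left out was Igf1-/- replicate 1 or 3 or Igf1+/+ replicate 2, and 2 when it was Igf1+/+ replicate 3. Ptgis was the added member, with adjusted p of 0.0737, 0.0971 and 0.0848. At 0.20 the count (2) was 1 with dim probe sets left out and 1 with either marker centring, and from 1 to 2 without 1 lung, being 1 without any lung but Igf1+/+ replicate 3. Calls under either marker centring rest mainly on a variance that limma shares across probe sets and carry little weight. No member rose under any alternative. Replicate numbers did not pair the lungs (correlations of deviations -0.0393, -0.228 and -0.137), and with the replicate block 1 member fell at 0.20.

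Small differences changed sign. Ece1 was 0.00443 with quantile normalization, 0.0179 with array weights, 0.0983 and 0.0508 with endothelial and smooth muscle centring and -0.0782 to 0.0455 without 1 lung. Its dimmer probe set was 0.0838 and 0.0363 with the centrings and -0.0800 to 0.00805 without 1 lung. Ace (brighter) was 0.0644 with weights, 0.0284 with endothelial centring and -0.285 to 0.0224 without 1 lung. Without 1 lung Edn1 ranged from -0.138 to 0.208, Ednrb (dimmer) from -0.0189 to 0.186, Nos3 from -0.00839 to 0.168, Myl9 from -0.0848 to 0.137, Pdgfrb from -0.201 to 0.101 and Myh6 from -0.102 to 0.738. With endothelial centring Atp6ap2 was 0.0632 and Pdgfrb 0.0461, and with smooth muscle centring Atp6ap2 was 0.0156. The alternatives for listed genes were added after seeing the data. The causes were not tested.

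Over all probe sets, 89 fell and 37 rose at 0.10. With a variance trend and robust estimates 140 fell and 64 rose, with array weights 399 and 229, with smooth muscle centring 193 and 232, and with endothelial centring 111 and 202. Averaging the probe sets of a gene gave 77 that rose, and leaving out 1 lung gave 31 to 481 that fell and 14 to 229 that rose. At 0.20, 366 fell and 222 rose. With array weights these were 1211 and 1114 and with endothelial centring 176 and 545. The number that rose was 132 with the replicate block, 111 with dim probe sets left out and 337 with smooth muscle centring, and without 1 lung 58 to 1518 fell and 30 to 1370 rose. Of 190 alternatives for member probe sets, 165 kept direction and side of the threshold.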
